A study of Mus musculus with 38 samples.

Results

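The comparison asked how brown fat of mice given 75 micrograms of Kal-1 on a high fat diet differed from brown fat of mice given 5 micrograms on the same diet. Kal-1 is an ethnobotanical formulation in water. Its members were the 12 of 38 arrays in the series that carried the labels HF75 (6 arrays) or HF5 (6 arrays), with 1 array of each dose at Weeks 3, 6, 9, 12, 15 and 18. Both groups were C57BL/6J mice, an inbred strain prone to diet-induced obesity, that were weaned at 3 to 4 weeks of age and kept on a 12 hour light cycle. Both received a high fat diet with raised sucrose, in which 60% of the calories came from fat, so neither group is an untreated control. A group started with 30 animals, and 5 were killed every 3 weeks. The labels do not say whether an array held the RNA of 1 animal or of several, and the sexes are not given. The other groups of the series were a low fat control (LFC, 10% of calories from fat), the high fat diet alone (HFC) and 20 micrograms of Kal-1 (HF20). Levels of HFC and HF20 are given only as side values for some genes, and those of LFC only within ranges over all arrays of the series. Because each dose had 1 array a week, the replicates of a dose are its weeks, and each p measures the spread of the weekly difference among these arrays.

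Brown adipocytes burn fatty acids and glucose to make heat. The protein behind this is Ucp1, which lets protons back through the inner mitochondrial membrane without making ATP. Noradrenaline acts on beta-adrenergic receptors, cAMP rises, stored triglyceride is split, and the released fatty acids both open Ucp1 and feed beta-oxidation. Ppargc1a, Ppargc1b, Ppara and Esrra are transcription regulators that keep the mitochondrial and oxidation genes high. The tissue also makes new fatty acids through Acaca and Fasn under the control of Mlxipl and Srebf1, and holds blood vessels, macrophages, other leukocytes and nerve endings. In a piece of tissue, fewer cells of a type and less RNA per cell cannot be told apart.

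Levels are given as log2 of the processed Cy3 signal of a probe minus the log2 75th percentile of its array, so that 0 is the 75th percentile. A level of one gene is not set against that of another gene. A difference is the HF75 level minus the HF5 level of the same week, and -1 stands for a signal at 50% of that in HF5. The 75th percentile of the raw processed signal ran from 35.1 to 871 intensity units in HF75 and from 35.8 to 173 in HF5. Of all spots, 43.1% to 68.2% were well above background in HF75 and 36.6% to 57.7% in HF5. A gene called above background here passed this scanner call of well above background. Failing the call does not show that a signal was below background. The log2 75th percentile had a mean difference of 0.44 between the doses (SD 1.13, higher in HF75 at 4 of 6 weeks, exact sign-flip test over weeks, two-sided, p = 0.469). In the share of spots well above background the mean difference was -0.078 percentage points (SD 7.07, higher at 2 of 6 weeks, exact p = 0.969). The smallest p that 6 pairs allow is 0.0312.

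The array labelled HF75 of Week 3 went against its tissue label. The summed level of 8 brown adipocyte markers (Ucp1, Cidea, Elovl3, Cox7a1, Cox8b, Adrb3, Zic1 and Lhx8) was 2.58 on it, while the other 37 arrays of the series lay between 7.02 and 10.4. Ucp1 was at -3.07 there against 3.38 to 8.57 on the other 37. Macrophage markers were at 4.09 on it (others 1.29 to 4.10), and white adipocyte markers at 4.03 (others 0.029 to 5.40). The summed erythroid level of 5.17 was the lowest of the 38 arrays. It was also the brightest of the 12, with 593 saturated spots against 7 to 66 on the others. Another array stood apart in muscle: summed skeletal muscle markers were at 9.99 on the HF75 array of Week 12, the highest of the 38 arrays, and at 2.34 to 3.94 on the other 5 HF75 arrays. For these reasons the 2 fits were run over all 6 weeks and over Weeks 6 to 18, which leave out Week 3, and a value without a span is over 6 weeks. Of the nerve markers, Th and Dbh, enzymes of noradrenaline synthesis, were above background on 0 of the 12 arrays.

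**Figure D1:**
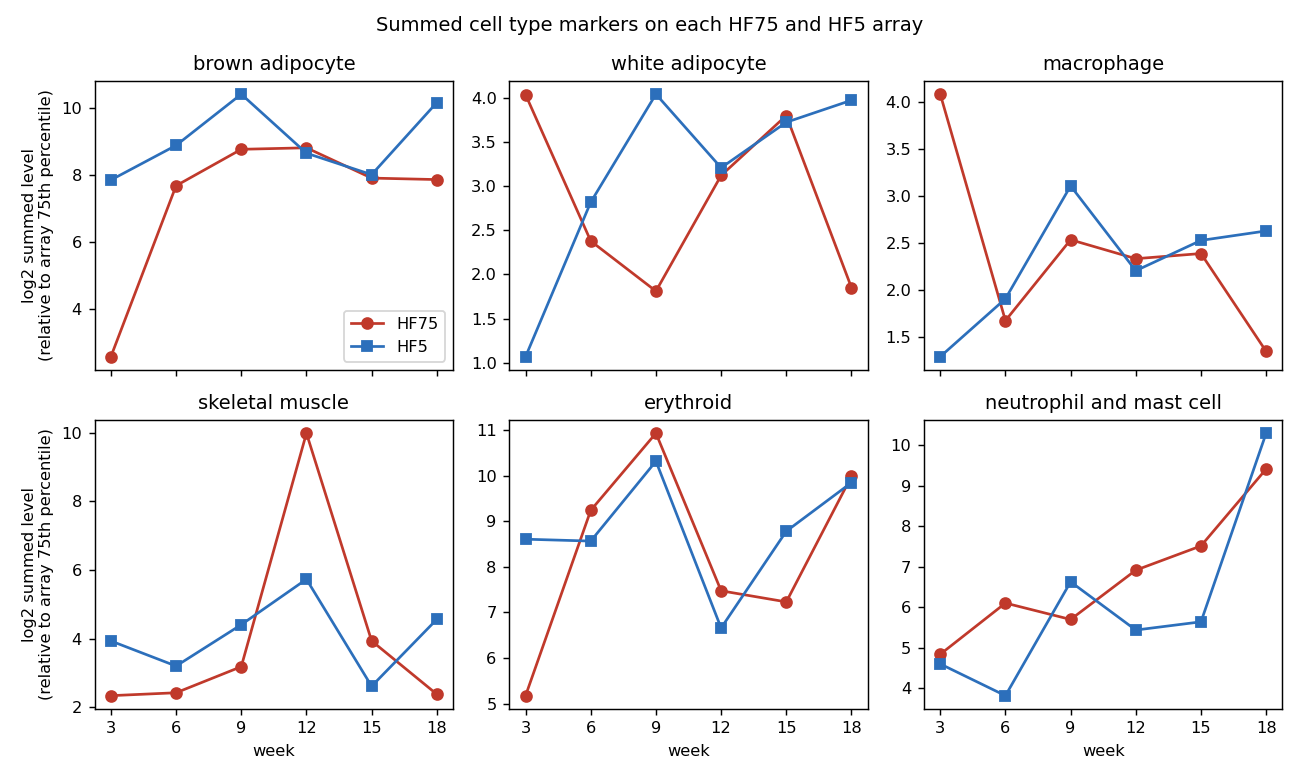
Summed level of fixed cell type markers on each array (log2 relative to the 75th percentile of the array, y axis) by week (x axis), HF75 as red circles and HF5 as blue squares, 1 array per point. Brown adipocyte markers drop to 2.58 on the HF75 array of Week 3 only, and skeletal muscle markers reach 9.99 on the HF75 array of Week 12.

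No gene separated the doses after correction. With limma paired by week over all 6 weeks, 0 of 16009 genes had an adjusted p under 0.05, the lowest being 0.846. Without adjustment, 254 genes were higher in HF75 with p under 0.05 (1.59%) and 644 were lower (4.02%). Over Weeks 6 to 18 the adjusted count was also 0 (smallest 0.827), with 379 genes higher (2.37%) and 587 lower (3.67%) at an unadjusted p under 0.05. This balance rests on single weeks, since without Week 18 it was 487 higher and 325 lower, and without Week 9 it was 638 and 528. Over 6 weeks, leaving out Week 9 gave 554 higher and 690 lower. The methods' t-test, unpaired, gave 0 genes after Benjamini-Hochberg adjustment and 520 unadjusted over 6 weeks, and a paired test without moderation gave 0 and 956. The share of genes at an unadjusted p under 0.05 that were higher in HF75 was 28.3%, and it was 40.2% with quantile normalization and 11.5% with normexp background correction. Over Weeks 6 to 18 it was 39.2%, or 25% with normexp. So what follows describes sizes, weeks and counts of unadjusted p values, and none of these genes passed the correction.

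Single weeks differed widely. Between 668 (Week 15) and 2414 (Week 18) genes were at least 2-fold higher in HF75, and between 1039 (Week 6) and 2998 (Week 3) were at least 2-fold lower. Of 15940 genes measured in every week, 151 were higher in HF75 at 6 of 6 weeks (0.947%) and 495 were lower at 6 of 6 weeks (3.11%). The ranges of the 6 HF75 and the 6 HF5 arrays did not overlap for 2 genes higher in HF75 (0.0125%) and 15 lower (0.0941%). The median difference over all genes tested was -0.06 over 6 weeks and -0.029 over Weeks 6 to 18. Over 6 weeks 9107 of the 16009 genes had a lower mean in HF75 and 6902 a higher mean.

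The genes by which brown fat makes heat were lower in HF75 than in HF5 in most weeks. Of 17 tested genes in the list of thermogenic effectors, 15 had a negative mean difference and 8 of these an unadjusted p under 0.05 (2 were higher, 0 of them at that p), while 4.02% of all genes were lower at that p. The median difference was -1.19, beside -0.06 over all genes. Without Week 3 it was -0.94, with 7 genes at that p. Without Week 9, without Week 18 or with quantile normalization the count was 3. By week, the list median was -2.83, -1.05, -1.56, -0.14, 0.09 and -2.11 at Weeks 3, 6, 9, 12, 15 and 18. So the doses were close at Weeks 12 and 15 and apart in the other 4 weeks.

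Ucp1 (chromosome 8) ran from -3.07 to 6.96 in HF75 with a median of 6.02, and from 5.27 to 8.57 in HF5 with a median of 6.62. It was lower in HF75 at 5 of 6 weeks, with weekly differences in time order of -8.34, -1.05, -1.61, -0.14, 0.56 and -2.62. The ranges overlap, and the HF75 arrays other than Week 3 lie between 5.53 and 6.96. The mean difference was -2.20 (SE 1.02, limma unadjusted p = 0.0615, adjusted 0.846) over 6 weeks and -0.97 (SE 0.45) over Weeks 6 to 18, so the 6-week value rests largely on the Week 3 pair. Cidea, a lipid droplet protein of brown adipocytes, was at -8.30 at Week 3, with a mean of -2.26 (SE 0.99) over 6 weeks and -1.06 (SE 0.41) over Weeks 6 to 18.

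Among the other effectors Fabp3, a fatty acid carrier of oxidative cells, was lower in HF75 at 6 of 6 weeks. It lay between -1.24 and 5.15 (median 4.31) in HF75 and between 3.54 and 7.05 (median 5.67) in HF5. The mean difference was -1.92 (SE 0.55, limma unadjusted p = 0.0073), or -1.35 (SE 0.38) without Week 3. Acot11, a thioesterase induced by cold, was also lower at 6 of 6 weeks, by -1.67 (SE 0.52), or -1.28 (SE 0.48) without Week 3. Cox7a1 and Cox8b, muscle and brown fat forms of cytochrome oxidase subunits, were at -1.78 (SE 0.73) and -2.21 (SE 0.88) over 6 weeks and at -0.93 (SE 0.37) and -1.14 (SE 0.37) over Weeks 6 to 18. Elovl3, which makes very long chain fatty acids in activated brown fat, went from -4.52 at Week 3 to 1.19 at Week 15. Dio2, the deiodinase that makes active thyroid hormone inside the cell, was lower at 5 of 6 weeks with a mean of -1.08 (SE 0.47). Brown fat turns Dio2 on through cAMP, and the 250 bases before its start hold the cAMP response element TGACGTCA, shown in capitals. They are given 5′ to 3′ from RefSeq (GRCm38.p6, chr12:90739039-90739288, minus strand).
Dio2: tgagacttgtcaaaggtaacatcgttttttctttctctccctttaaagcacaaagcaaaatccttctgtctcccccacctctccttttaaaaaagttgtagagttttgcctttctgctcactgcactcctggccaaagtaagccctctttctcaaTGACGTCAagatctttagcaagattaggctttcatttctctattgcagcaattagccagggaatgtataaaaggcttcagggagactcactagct
Among the 27025 genes whose promoters were listed, 1.77% had these letters on either strand in the same window. Of the 9997 such genes that were tested, 2.88% had them. Among the thermogenic effectors the count was 1 of 14 genes, and among the respiratory genes below it was 4 of 20 (Cycs, Mdh2, Ogdh and Uqcrfs1).

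The regulators of the brown fat programme were lower as well, with less dependence on Week 3. Of 20 tested genes of this list 18 had a negative mean difference, 7 of them at an unadjusted p under 0.05 beside 4.02% of all genes. The median was -0.60. Over Weeks 6 to 18 it was -0.63, with 15 of 20 lower and 7 genes at that p beside 3.67% of all genes. With all 5 groups in the fit the 6-week count was 0. Ppara, the nuclear receptor that drives fatty acid oxidation genes, ran from -4.02 to 1.21 (median -0.14) in HF75 and from -1.19 to 2.05 (median 1.24) in HF5. It was lower in HF75 at 6 of 6 weeks, by between -0.84 and -2.86, although the ranges overlap. The mean difference was -1.69 (SE 0.34, limma unadjusted p = 0.001, adjusted 0.846) and -1.46 (SE 0.34) without Week 3, which is 31.1% of the HF5 signal in the first case.

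Ppargc1b, a coactivator of mitochondrial genes, was lower at 6 of 6 weeks too. Its HF75 levels lay between -1.72 and -0.42 (median -1.19) and its HF5 levels between -0.74 and 0.77 (median 0.03). The difference at Week 3 was the smallest, -0.37, and the mean was -1.17 (SE 0.28) over 6 weeks and -1.33 (SE 0.30) over Weeks 6 to 18. A second probe of the gene gave -1.81, while with normexp the 6-week mean of the first was -0.32. For its relative Ppargc1a the mean was -0.99 (SE 0.40), with 0.88 at Week 15 and -2.24 at Week 18, and a second probe gave -0.03, so its probes disagree. Esrra, an orphan receptor that works with these coactivators, was at -0.66 (SE 0.23), and Cebpa, a factor of fat cell differentiation, at -1.01 (SE 0.33) and lower at 6 of 6 weeks. Adrb3, the beta-3 adrenergic receptor, was higher by 1.22 at Week 3 and averaged -1.30 (SE 0.41) over Weeks 6 to 18.

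Most fatty acid oxidation genes had a lower mean in HF75. The list median was -1.14, -0.58, -1.36, -0.21, 0.06 and -2.17 at Weeks 3, 6, 9, 12, 15 and 18. The doses were thus closer at Weeks 12 and 15, and 5 of the 22 tested genes were lower in every week. Of 22 tested genes 21 had a negative mean difference, 12 at an unadjusted p under 0.05 beside 4.02% of all genes, and the median was -0.91. Leaving out Week 3 gave a median of -0.84 and 10 genes at that p. Leaving out Week 9 gave 8 genes, leaving out Week 18 gave 7 and fitting all 5 groups gave 5. The single gene above 0 was Cpt1a at 0.15, the liver form of the carnitine transferase. Its muscle and brown fat form Cpt1b, counted among the effectors, was at -1.15 (SE 0.37).

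Acads, on chromosome 5, is the short chain acyl-CoA dehydrogenase, which takes the first step of the cycle. Its HF75 levels ran from -1.89 to 0.50 (median -1.25) and its HF5 levels from -0.84 to 1.87 (median 0.39). It was lower in HF75 in every week, by -1.40, -2.24, -1.37, -0.87, -0.52 and -2.40 at Weeks 3 to 18. The mean was -1.47 (SE 0.30, limma unadjusted p = 0.001), and it was -1.48 without Week 3, so leaving out that pair hardly moved it. With normexp it was -0.71. Decr2, a peroxisomal reductase for unsaturated fatty acids that the list does not hold, is 1 of the 15 genes whose ranges did not overlap: HF75 lay between -1.21 and 0.07 and HF5 between 0.17 and 0.90. The mean difference was -0.93 (SE 0.23), largest at Week 15 (-1.61) and smallest at Week 3 (-0.32). Hadh and Hadhb, which carry out later steps of beta-oxidation, were lower at 6 of 6 weeks by -1.14 (SE 0.29) and -1.02 (SE 0.31). Acadm, for medium chains, was at -0.92 (SE 0.40) over Weeks 6 to 18 with 0.21 at Week 15, and Cpt2 at -1.01 (SE 0.34).

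All 27 tested genes of the respiratory chain and the citric acid cycle had a lower mean in HF75. Of these 17 had an unadjusted p under 0.05, against 4.02% lower among all genes. The median was -0.73, and it was -0.69 over Weeks 6 to 18, where the count at that p was 9. All 27 stayed below 0 in each of the 12 alternatives tried, with medians from -1.37 (normexp) to -0.53 (quantile normalization). Several of the 12 could hardly turn a sign. The fit of all 5 groups leaves the mean differences as they are, and fits without 1 week share the other pairs. The count at an unadjusted p under 0.05 was 9 without Week 18 and with quantile normalization, 7 with array brightness as a covariate, 5 with all 5 groups in the fit and 26 with normexp. By week the list median was -1.03, -0.62, -1.36, 0.01, -0.11 and -1.71. So Weeks 12 and 15 were again near 0.

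Within this list Cox4i1, a nuclear-coded subunit of cytochrome oxidase, had levels of 5.37 to 6.40 (median 6.04) in HF75 and 5.88 to 7.39 (median 6.69) in HF5. Its difference was narrow and of 1 sign, from -0.46 at Week 15 to -1.22 at Week 18, with a mean of -0.73 (SE 0.21), or 60.1% of the HF5 signal. Ndufb8 of complex I (-0.80, SE 0.23) and Sdhb of complex II (-1.06, SE 0.35) were lower at 6 of 6 weeks. Cyc1 of complex III was at -0.94 (SE 0.30) and lower at 5 of 6 weeks. Citrate synthase (Cs) was at -0.68 (SE 0.30, limma unadjusted p = 0.0504), with values close to 0 at Weeks 12 and 15.

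**Figure D2:**
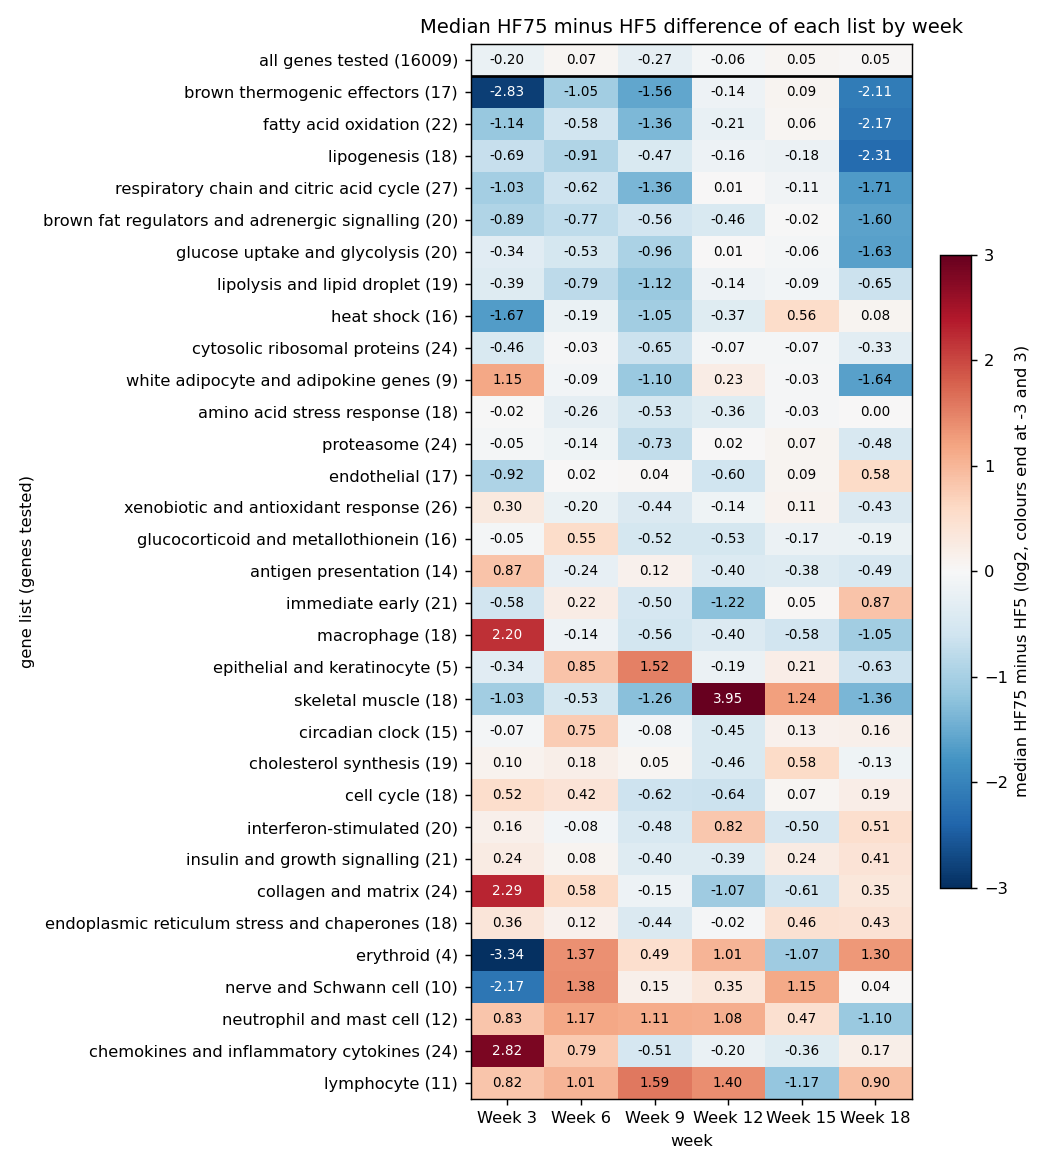
Median HF75 minus HF5 difference (log2, colour and printed value) of each gene list (rows, number of genes tested in brackets) by week (columns), with all 16009 genes in the top row. The thermogenic, oxidation, respiratory and lipogenic lists are below 0 at Weeks 3, 6, 9 and 18 and between -0.21 and 0.09 at Weeks 12 and 15, where skeletal muscle reads 3.95 and 1.24.

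Lipogenesis followed the same weeks. Of 18 tested genes 15 had a negative mean difference, 8 at an unadjusted p under 0.05 beside 4.02% of all genes. The median was -0.89, or -0.81 with 7 genes at that p without Week 3. With all 5 groups in the fit 3 genes were at that p. The lowest list median was -2.31 at Week 18. Mlxipl, the carbohydrate-sensing factor ChREBP on chromosome 5, lay between -2.40 and -0.20 (median -1.30) in HF75 and between -0.75 and 1.33 (median 0.35) in HF5. It was lower at 6 of 6 weeks with a mean of -1.62 (SE 0.36, limma unadjusted p = 0.0018). Fasn, the fatty acid synthase, was at -1.33 (SE 0.38) and Acaca, which makes malonyl-CoA, at -1.21 (SE 0.35), or -1.17 (SE 0.42) and -1.01 (SE 0.37) without Week 3. Thrsp, a lipogenic nuclear protein, was at -1.33 (SE 0.44) and lower at 6 of 6 weeks. Scd1, the main stearoyl-CoA desaturase, was higher by 1.14 at Week 3 and lower in the other 5 weeks (-1.35, SE 0.37, over Weeks 6 to 18).

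Glycolysis and lipid droplet genes showed smaller distances. Of 20 genes for glucose uptake and glycolysis 18 were lower, 3 at an unadjusted p under 0.05 beside 4.02% of all genes, with a median of -0.53. The median was -0.59 without Week 3 and -0.34 without Week 18, and the count was 7 without Week 12 and 0 with all 5 groups. Pfkl, a phosphofructokinase, was at -1.11 (SE 0.30), while the glucose transporter Slc2a4 was at -0.70 (SE 0.40) with 1.22 at Week 12. Of 19 lipolysis and droplet genes 17 were lower, 3 at that p, with a median of -0.46. The count was 6 without Week 3, 1 without Week 18 and 1 with all 5 groups. Plin5, which ties droplets to mitochondria, was at -1.31 (SE 0.36) and lower at 6 of 6 weeks, and the lipase Pnpla2 was at -0.38 (SE 0.31), with probes from -1.07 to -0.38.

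Several genes of fat cells in general also had a lower mean in HF75 once Week 3 was left out. Over Weeks 6 to 18 the adipokine Adipoq was at -1.45 (SE 0.55), the serine protease Cfd (adipsin) at -1.41 (SE 0.51), resistin (Retn) at -1.45 (SE 0.48) and the droplet protein Cidec at -1.32 (SE 0.36). At Week 3 Retn was 3.23 and Cidec 1.02 higher in HF75. At Week 12 Adipoq, Retn and Cfd were higher in HF75 by 0.98, 0.76 and 0.61, while Cidec was at -0.30. Of 9 tested genes of the white adipocyte and adipokine list 6 were lower and 3 higher over Weeks 6 to 18, with a median of -0.89. Of the 6 lower genes 4 had an unadjusted p under 0.05, beside 3.67% of all genes. The list median was 0.23 at Week 12 and -0.03 at Week 15. Over 6 weeks the median was -0.27 with 1 gene at that p. The summed brown adipocyte markers differed by -1.21, -1.65, 0.16, -0.10 and -2.30 at Weeks 6 to 18, and the summed white adipocyte markers by -0.44, -2.23, -0.09, 0.08 and -2.12. Skeletal muscle markers differed by -0.78, -1.22, 4.25, 1.32 and -2.18 in those weeks. Acta1, skeletal actin, was 3.88 higher in HF75 at Week 12. The part that these cell types have in the differences of the metabolic lists was not tested.

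Several genes outside the lists were also lower. They were picked for the smallest p among genes of 1 sign in every week, for Isoc2b over Weeks 6 to 18. The size varied between weeks, for Fam13a from -0.63 at Week 6 to -2.99 at Week 18. Fam13a, a gene linked in people to body fat distribution, was lower at 6 of 6 weeks with HF75 levels from 0.01 to 1.96 (median 0.54) and HF5 levels from 1.67 to 3.44 (median 1.93). Its mean difference was -1.53 (SE 0.31) and hardly moved without Week 3 (-1.58). Gatd3a, a mitochondrial protein, was at -1.44 (SE 0.31), and over Weeks 6 to 18 it was the gene with an adjusted p of 0.035 under normexp background correction (-2.38), the single call in any alternative run. Cib2, a calcium binding protein, was at -1.27 (SE 0.31) and Tbc1d20, a GTPase activating protein of the secretory pathway, at -0.94 (SE 0.22), both lower at 6 of 6 weeks. Isoc2b was lower in the 5 weeks after Week 3 by -1.63 (SE 0.38), or by -0.50 with normexp.

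**Figure D3:**
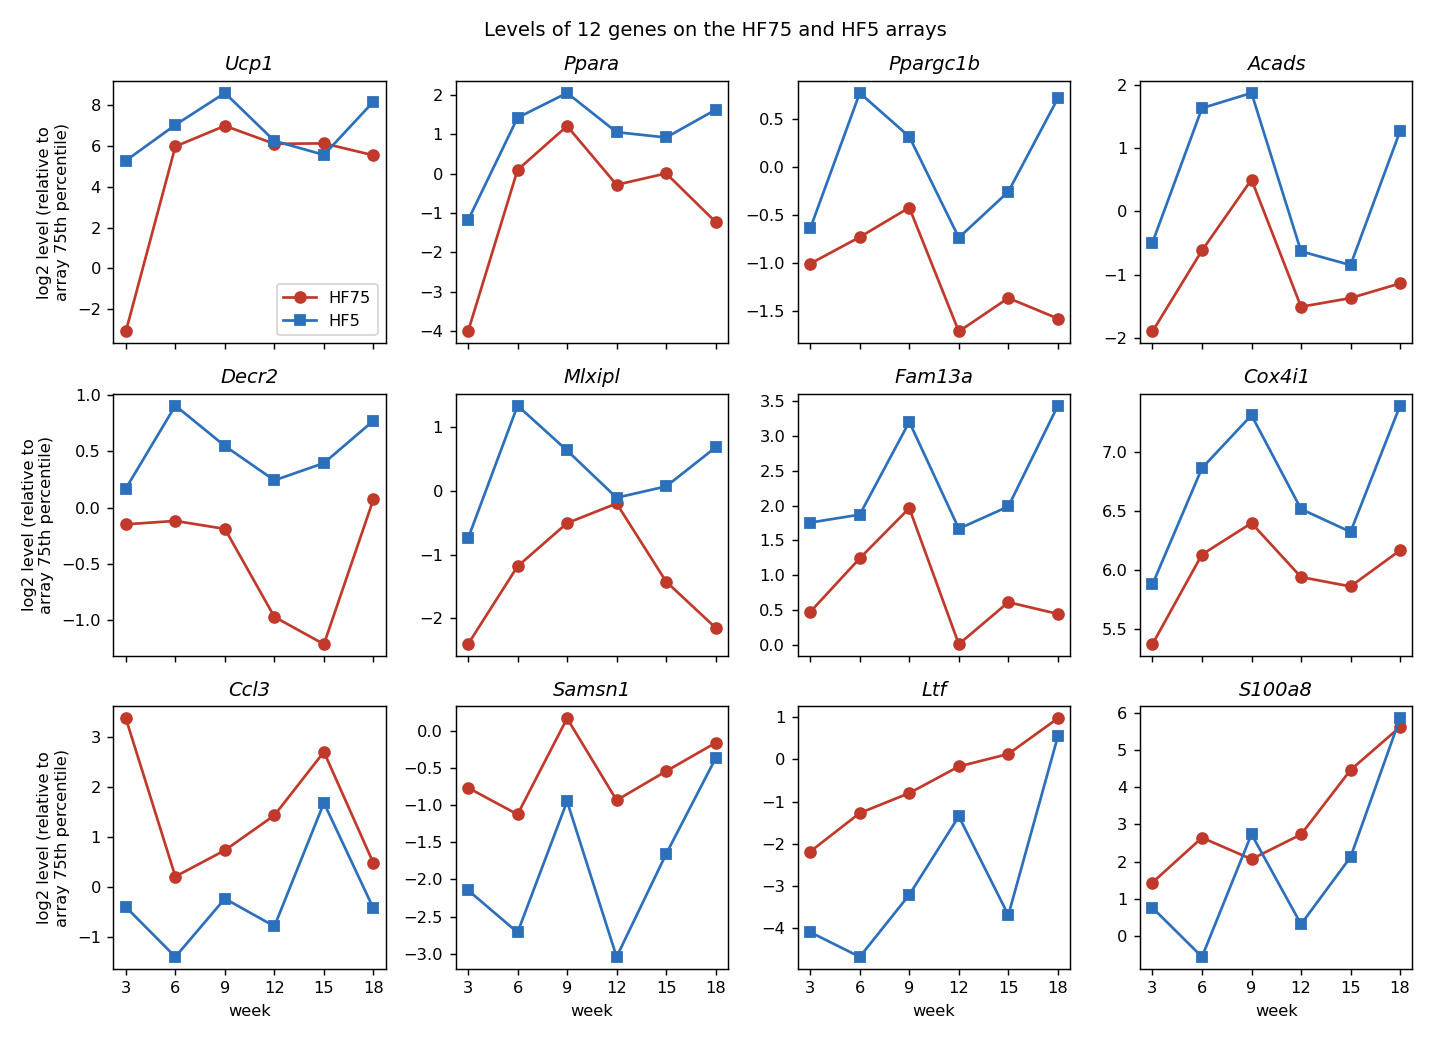
Level (log2 relative to the 75th percentile of the array, y axis) of 12 genes by week (x axis), HF75 as red circles and HF5 as blue squares, 1 array per point and a separate y scale in each panel. Ppara, Ppargc1b, Acads, Decr2, Mlxipl, Fam13a and Cox4i1 are lower in HF75 in every week, and Ccl3, Samsn1 and Ltf are higher in every week.

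Of the genes higher in HF75 in every week, several are known from leukocytes, among them Samsn1, Plek and Acod1, which were taken by their p and not from a list. Samsn1, an adaptor of haematopoietic cells on chromosome 16, ran from -1.12 to 0.17 (median -0.65) in HF75 and from -3.04 to -0.37 (median -1.90) in HF5. It was higher in HF75 at 6 of 6 weeks, by 0.21 to 2.11, with a mean of 1.25 (SE 0.27, limma unadjusted p = 0.0015, adjusted 0.846). Plek, the kinase substrate pleckstrin of platelets and leukocytes, was higher at 6 of 6 weeks by 1.22 (SE 0.30). Acod1, which makes itaconate in activated macrophages, was higher at 6 of 6 weeks by 0.89 (SE 0.25), though a second probe gave 0.30. Cd24a, a surface protein of immature blood cells and other types, was higher by 0.80 (SE 0.21), between 0.58 and 1.32 in each week. With normexp the differences of Cd24a and Acod1 were 0.26 and 0.31.

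Some chemokines were also higher. Ccl3, a macrophage chemokine that draws leukocytes, lay between 0.21 and 3.38 (median 1.09) in HF75 and between -1.40 and 1.69 (median -0.41) in HF5. It was higher in each week, by 3.78, 1.61, 0.97, 2.23, 1.02 and 0.91, with a mean of 1.75 (SE 0.40) and of 1.35 (SE 0.29) without Week 3. Cxcl2, which draws neutrophils, was higher at 6 of 6 weeks by 1.51 (SE 0.51), of which 4.34 came at Week 3, and by 0.94 (SE 0.30) without it. Ccl5, a T cell chemokine, was higher at 5 of 6 weeks, by 1.38 (SE 0.49) over Weeks 6 to 18. Of 24 chemokine and cytokine genes 20 had a positive mean difference, 3 of them (the 3 just named) at an unadjusted p under 0.05, against 1.59% of all genes. With all 5 groups in the fit 0 genes were higher at that p. Without Week 3 the number above 0 was 14 and the median 0.05 rather than 0.38, and it was 0.12 with array brightness as a covariate. The list median was 2.82, 0.785, -0.51, -0.20, -0.36 and 0.17 at Weeks 3, 6, 9, 12, 15 and 18, so it was below 0 at Weeks 9, 12 and 15. In the Week 3 pair the summed macrophage markers were 2.80 higher in HF75, and their part in this list was not tested.

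Some neutrophil granule genes were higher in HF75, but several were not well above background on every HF5 array, so the size of their differences is uncertain. Camp, the antimicrobial cathelicidin, was above background on 6 of 6 HF75 arrays and 3 of 6 HF5 arrays. It ran from -2.10 to 0.57 (median -0.39) in HF75 and from -6.61 to -0.12 (median -3.48) in HF5, and was higher at 6 of 6 weeks with a mean of 2.65 (SE 0.59). Ltf, lactoferrin of the secondary granules, was higher at 6 of 6 weeks by 2.19 (SE 0.45) and was above background on 4 of 6 HF5 arrays. Ngp, another granule protein, was higher at 5 of 6 weeks, and was above background on 6 of 6 HF75 and 2 of 6 HF5 arrays. With dim signals raised to the lowest signal well above background, the differences of Camp, Ltf and Ngp were 2.22, 2.11 and 1.21. All 3 passed the filter on dim probes through their HF75 arrays. S100a8, a subunit of calprotectin, was higher at 4 of 6 weeks by 1.29 (SE 0.53). These 4 are the genes of the 12 tested in the neutrophil and mast cell list that were higher at an unadjusted p under 0.05, and the list median was 0.30. The count was 2 without Week 6, without Week 15, with normexp and with all 5 groups. Since 3 of them entered through the group where they were high, the count is not set against the 1.59% of all genes. The summed neutrophil and mast cell markers were lower in HF75 at Week 9 (-0.93) and Week 18 (-0.88). Mcpt4, a mast cell protease, went the other way at -1.37 (SE 0.44), lower in the 5 weeks after Week 3, and it was above background on 3 of 6 HF75 arrays. Its difference was 0.12 with normexp, so its direction depends on the background correction.

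Factors of the C/EBP family bind letters of the kind TTNNGCAA (TTGCNNAA on the opposite strand), and granule genes of maturing neutrophils are among their known targets. Among the 27025 genes whose promoters RefSeq lists, 10.8% held such letters in the 250 bases before the start, and 9.7% of the 9997 tested did. Of the 11 neutrophil and mast cell genes with a promoter 4 did (Fcer1a, Ltf, Ngp and S100a9). In fatty acid oxidation it was 1 of 18, Acads. These 3 upstream stretches are shown because Ltf and Ngp were higher and Acads lower in HF75, 5′ to 3′ with the matching letters in capitals. Ltf is from chr9:111019042-111019291 (plus strand), Ngp from chr9:110419558-110419807 (plus strand) and Acads from chr5:115119347-115119596 (minus strand), all in GRCm38.p6.
Ltf: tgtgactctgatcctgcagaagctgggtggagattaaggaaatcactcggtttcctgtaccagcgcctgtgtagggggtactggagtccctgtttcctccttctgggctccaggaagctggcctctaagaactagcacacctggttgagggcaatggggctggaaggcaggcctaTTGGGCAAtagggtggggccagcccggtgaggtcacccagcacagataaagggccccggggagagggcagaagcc
Ngp: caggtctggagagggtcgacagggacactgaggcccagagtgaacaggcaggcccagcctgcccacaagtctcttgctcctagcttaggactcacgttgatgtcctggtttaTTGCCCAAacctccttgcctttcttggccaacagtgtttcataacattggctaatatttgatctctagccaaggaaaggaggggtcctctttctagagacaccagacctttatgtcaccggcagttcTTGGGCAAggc
Acads: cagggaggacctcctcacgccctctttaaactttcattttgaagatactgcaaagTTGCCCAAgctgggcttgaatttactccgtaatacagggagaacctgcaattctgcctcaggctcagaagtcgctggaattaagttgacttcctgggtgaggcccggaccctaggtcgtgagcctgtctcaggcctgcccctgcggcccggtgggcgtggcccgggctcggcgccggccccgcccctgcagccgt
Ltf and Acads have 1 match each and Ngp has 2. A match of letters is a description of these windows and was not tested as a binding site.

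Of the lymphocyte genes, 3 of cytotoxic cells were higher in HF75 in all weeks but Week 15. Gzmb, granzyme B, was at 1.22 (SE 0.43), Nkg7, a granule membrane protein, at 1.14 (SE 0.40) and Gzma, granzyme A, at a median of -1.93 in HF75 against -3.49 in HF5, each higher at 5 of 6 weeks. At Week 15 their differences were -1.10, -0.89 and -1.44. A second probe of Nkg7 gave -0.02. Of 11 lymphocyte genes 10 were higher, these 3 at an unadjusted p under 0.05, and the median was 0.67. Gzmb was above background on 6 of 6 HF75 and 4 of 6 HF5 arrays, and Gzma on 5 of 6 and 3 of 6. Since both failed the call of well above background on some HF5 arrays, the count is not set against the share of all genes. The summed lymphocyte markers were lower in HF75 at Week 15 (-1.17) and at Week 18 (-1.23). The count at that p was 0 without Week 9, 0 without Week 12 and 0 without Week 18. With normexp it was 1, and with all 5 groups in the fit it was 0. The T cell receptor subunit Cd3e was at -0.42 (SE 0.62), and none of the 7 lymphocyte markers was above background on all 12 arrays.

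Macrophage genes had a median nearer to 0. Of 18 tested 12 had a lower mean in HF75, and the median was -0.11 over 6 weeks and -0.53 over Weeks 6 to 18. At an unadjusted p under 0.05, 0 and 3 genes were lower (Trem2, C1qc and Lgals3), beside 4.02% and 3.67% of all genes. The 6-week median was 0.10 with normexp and 0.13 without Week 18, so its sign is not settled. The list median was 2.20 at Week 3 and below 0 in each later week, down to -1.05 at Week 18. Cd68, a lysosomal protein of macrophages, was higher by 1.95 at Week 3 and at -0.52 (SE 0.31) over Weeks 6 to 18, and the receptor Csf1r was at 2.36 and -0.63 (SE 0.37).

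**Figure D4:**
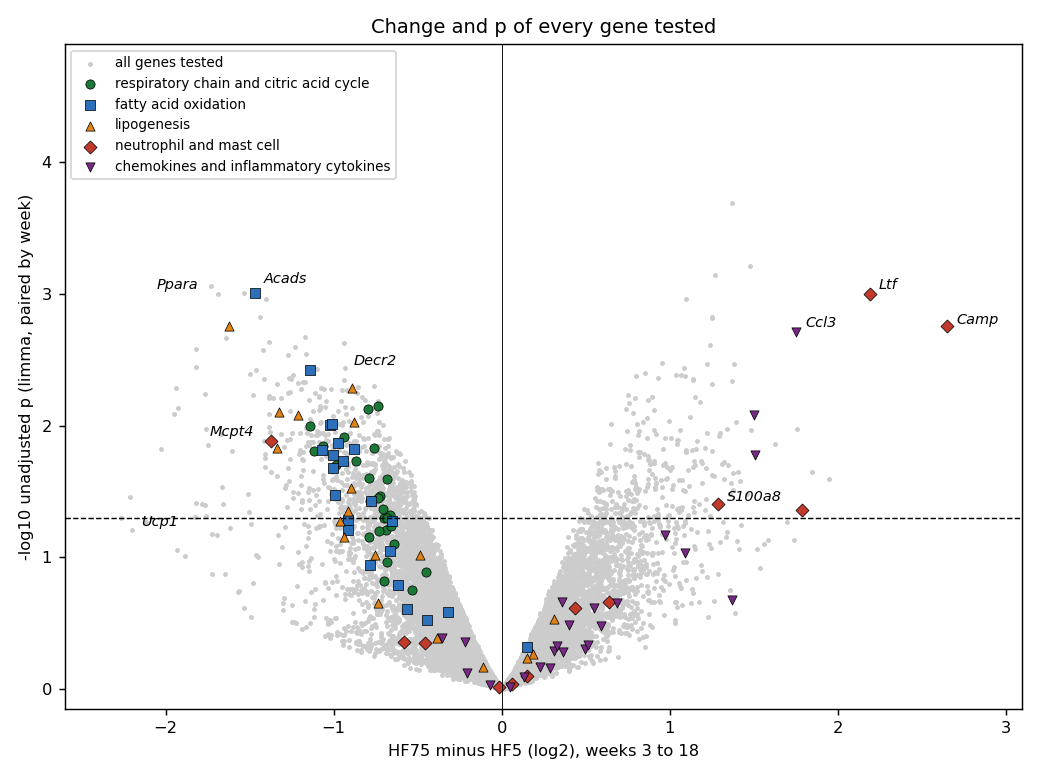
Mean HF75 minus HF5 difference over Weeks 3 to 18 (log2, x axis) against -log10 of the unadjusted limma p (y axis) for 16009 genes in grey, with members of 5 lists in colour and the dashed line at p of 0.05. Oxidation, respiratory and lipogenic genes lie to the left, with Acads at -1.47. Ltf (2.19), Camp (2.65) and Ccl3 (1.75) lie to the right, while no gene passed the adjusted threshold. Ltf and Camp were not well above background on every HF5 array.

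A few further genes were higher in HF75 at every week. Pou5f2, a POU domain factor known from testis, was tightly spaced, at 0.01 to 0.45 in HF75 and -0.89 to 0.04 in HF5, with a mean difference of 0.85 (SE 0.22). Hspa13, a microsomal chaperone, was higher by 1.04 (SE 0.27), but a second probe gave 0.15. Kif21b, a kinesin of neurons and leukocytes, was higher by 1.14 (SE 0.30). The 2 genes whose HF75 range lay wholly above the HF5 range were LOC641170 (1.37, SE 0.22) and Pkia, an inhibitor of protein kinase A (1.09, SE 0.28); both were picked out after their values were seen. LOC641170 was above background on 4 of 6 HF5 arrays. Pkia ran from -2.10 to -0.18 in HF75 and from -2.73 to -2.23 in HF5, the latter on arrays where it was above background in 5 of 6 cases.

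The high fat diet without Kal-1 gives a side value for 3 of these genes. Fam13a averaged 0.79 ± 0.70 (SD) in HF75, 2.32 ± 0.79 in HF5 and 2.56 ± 1.30 in HFC, each over the 6 arrays of the same weeks. For Mlxipl the means were -1.31 ± 0.87, 0.31 ± 0.73 and 0.78 ± 2.02. Camp averaged -0.62 ± 1.02 in HF75, -3.28 ± 2.41 in HF5 and -2.75 ± 1.57 in HFC. For other genes HFC lay nearer to HF75. Isoc2b averaged -0.56 in HF75, 0.75 in HF5 and -0.36 in HFC, and Gzmb -1.83, -3.04 and -1.58. In HF20 the means of Fam13a, Mlxipl and Camp were 3.76 ± 1.13, 3.20 ± 2.13 and -3.47 ± 3.50. Fam13a and Mlxipl were thus higher at the middle dose than at 5 or 75 micrograms. The difference of either dose from HFC or HF20 was not tested, and the HFC and HF20 arrays are not part of the main tests.

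Of the remaining lists, heat shock had a median of -0.44, with 16 of 16 genes lower. Of these 1, the mitochondrial chaperone Hspd1 (-0.85, SE 0.31), had an unadjusted p under 0.05, beside 4.02% of all genes. Without Week 3 the list median was -0.22 with 13 lower, and at Week 3 alone it was -1.67. The amino acid stress response had a median of -0.24 (14 of 18 lower), the proteasome -0.21 (21 of 24) and antigen presentation -0.15 (12 of 14). Of all 16009 genes, 9107 had a lower mean. At an unadjusted p under 0.05 these 3 lists held 0, 1 and 0 lower genes. With quantile normalization their medians were -0.19 (14 lower), -0.11 (18 lower) and -0.035 (9 lower). The median of 19 cholesterol synthesis genes was 0.015, with Sqle, squalene epoxidase, higher at 6 of 6 weeks by 0.62 (SE 0.23) and Hmgcs1 at -0.25 (SE 0.34). The clock list had a median of 0.00 over 15 genes. For 24 collagen and matrix genes it was 0.09, with 2.29 at Week 3 and -1.07 at Week 12, and Col1a1 went from 2.37 at Week 3 to -1.09 at Week 15. All 24 ribosomal protein genes had a lower mean in HF75 with a median of -0.32 and 0 at an unadjusted p under 0.05, but with quantile normalization the median was -0.06 and 16 of 24 were lower, so the size depends on the scaling.

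Finally the weekly differences were fitted against week as a number, to see whether the doses drew apart or together. With limma 0 genes had an adjusted p under 0.05, and 305 had a rising (1.91%) and 391 a falling difference (2.44%) at an unadjusted p under 0.05. Without Week 3 there were 92 rising and 492 falling, and with quantile normalization 410 rising and 273 falling, so the balance depends on that pair and on the scaling. Among genes above background on all 12 arrays the falling slopes with the smallest p were Marchf1, a ubiquitin ligase of antigen presenting cells, at -0.26 per week (SE 0.052), and the antibody genes Igh at -0.19 (SE 0.0405) and Jchain at -0.35 (SE 0.0831). Igh was 1.95 higher in HF75 at Week 3 and -0.65 at Week 18, and Jchain went from 5.20 to -1.17. The rising slopes with the smallest p by the same rule were Efr3b at 0.22 per week (SE 0.0482), from -1.96 at Week 3 to 1.96 at Week 18, Afdn at 0.21 (SE 0.0541) and Gm6190 at 0.19 (SE 0.0503).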

How the data were processed

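Brown fat RNA was labelled with Cy3 and hybridised to 1-colour Agilent mouse arrays. The deposited scanner files hold the processed intensity of each spot, which Agilent Feature Extraction (version 9.1 in the submitters' processing notes) had background-subtracted. A deposited table from the authors, of log2 values relative to LFC of the same time point, was an alternative only. A paper on the liver arrays of this experiment names Agilent Genespring GX for normalization and gives no further method. In the table, Week 15 columns matched the scanner values in spot order (r = 0.9918) and not by probe name (r = -0.0030).

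Spots of a probe were averaged, and log2 processed signals were centred on each array's 75th percentile. Of 40628 probes, 28136 were named through RefSeq accessions, 4982 by symbol and 1406 by synonym, and 6104 kept the name in the file, giving 29147 genes. Each gene used its probe with the highest mean over 38 arrays. A gene entered the tests (16009 did) if 6 or more of its 12 spots passed the scanner's call of well above background. Groups came from the labels. HF75 was compared with HF5 in limma 3.58.1 (R 4.3.3) with week as a block and Benjamini-Hochberg adjustment, with and without Week 3, and weekly differences were fitted against week. Array measures used exact sign-flip tests. The number of arrays limits the precision.

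The labels mark shared weeks, so the week pairs the arrays. Same-week deviations correlated at 0.258, 0.607, 0.031, 0.342, 0.239 and 0.135. The text names genes of 1 sign in every week with the smallest p, the highest and lowest slopes by p, the leading members of each list and fixed anchor genes. The members, lists and tests were chosen with earlier results of these data known. Alternatives were quantile normalization, normexp (offset 50), the authors' table, other filters on dim probes, every probe, array weights, brightness as a covariate, scan day as a block, all 5 groups, no week block, the methods' t-test, a paired test without moderation and each week left out. The paired fit was tested on simulated data. Promoters were matched by symbol, for 58 of 79 genes described. Python 3.11.15 was used for tables.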

Additional observations from a re-analysis of the deposited data

Results flagged for a closer look

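Of 216 sets of 6 values examined, 22 held 1 value far from the other 5, and 13 of the 22 were the HF75 array of Week 3. The rate of about 1 in 20 that chance gives holds for independent sets. These sets share arrays, and many are genes picked from these data, so the count is not set against that rate. On the HF75 array of Week 3 the 75th percentile was 871 and 593 spots were saturated, both compared on the raw and not the log2 scale. The summed brown adipocyte markers were at 2.58, with Ucp1 at -3.07, Cidea at -1.78, Cox7a1 at -0.33, Cox8b at -2.01 and Elovl3 at -8.32. Also low there were Fabp3 at -1.24, Cpt2 at 2.40, Cs at 4.51, Plin5 at -1.37 and Cyp1a1, an enzyme of xenobiotic metabolism, at -5.71.

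On the HF75 array of Week 12 the summed muscle markers were at 9.99 and Acta1 at 6.27. In HF5, Ppara was lowest at Week 3 (-1.19), Pou5f2 highest at Week 6 (0.043) and the clock gene Per2 lowest at Week 6 (-2.77). Among weekly list medians, lipogenesis at Week 18 (-2.31), macrophage at Week 3 (2.20), lymphocyte at Week 15 (-1.17) and neutrophil and mast cell at Week 18 (-1.10) stood apart from the other 5 weeks.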

How the results depend on the processing

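Of 2272 recomputed values for genes at an unadjusted p under 0.05, 2270 kept their sign. These genes were picked by that p in the same data, and many had 1 sign in every week, which leaving out a week cannot turn. For a gene measured on every array, dropping the week block, adding the other groups or dropping the moderation leaves the mean difference unchanged. So this count was largely fixed in advance. It also says nothing of size, which moved both ways with normexp. The 6-week differences of Cd24a, Acod1, Ppargc1b and Acads shrank to 0.26, 0.31, -0.32 and -0.71. Those of Gatd3a and Cib2 grew to -2.08 and -1.67. Mcpt4 turned with normexp, to 0.12 over 6 weeks and 0.22 over Weeks 6 to 18, and the cause was not tested. With normexp 1 gene passed the adjusted threshold over Weeks 6 to 18 (Gatd3a), and in the other alternatives run 0 genes did. Without the replicate block of week there were 0 adjusted calls and 485 unadjusted over 6 weeks, and 686 over Weeks 6 to 18. Other unadjusted counts that moved by over 1.5 times were 3014 and 5057 with normexp, 505 and 577 without Week 6 (equal to scan day as a block), 442 and 453 with all 5 groups, 585 without Week 18 and 520 with the methods' t-test. For the trend they were 238 with normexp and 1300 without a filter. Of 396 list medians recomputed, 389 moved by less than the SD of the 6 weekly medians of the list. The others were, with normexp, lipolysis and lipid droplet -0.91, endothelial -0.88, endoplasmic reticulum stress -0.31, insulin signalling -0.27, ribosomal proteins -1.01 and proteasome -0.70, and, with quantile normalization, ribosomal proteins -0.059. Leaving out 1 week can hardly move a list median by that SD, and adding the other groups leaves it unchanged. So the 389 were also largely fixed in advance and do not show that a median kept its size or sign. Among them, skeletal muscle went from -0.018 to -0.803 without Week 12, and macrophage from -0.113 to 0.134 without Week 18. The difference in spots well above background ran from -2.19 to 1.53 percentage points with single weeks left out. Chosen after seeing the data, leaving out Weeks 3 and 12 gave 853 unadjusted genes and leaving out Weeks 12 and 15 gave 1063. Slide as a random block was not run, since the 12 arrays lay on 12 slides.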

Other observations

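Some clock genes differed widely at Week 6. There, Arntl, the activator of the clock, differed by -3.04 between HF75 and HF5, while its repressor Per2 differed by 3.06 and the output factor Dbp by 2.65. In the other 5 weeks Per2 differed by -0.52 to 0.91, while Arntl differed by -2.31 at Week 3. Over 6 weeks the probes of Per2 gave 0.67 and -0.42.

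Among genes of Schwann cells, the receptor Ngfr was at 0.76 (SE 0.28) and Sox10, a factor of the lineage, at 0.70 (SE 0.28) over Weeks 6 to 18. At Week 3 the median of the 10 nerve and Schwann cell genes was -2.17. Lcn2, a secreted protein of neutrophils and fat cells, was higher by 1.48 (SE 0.46) over 6 weeks. The metallothioneins Mt1 and Mt2 were at -0.88 (SE 0.28) and -1.18 (SE 0.48) over Weeks 6 to 18. Akt2, the insulin-responsive kinase, was at -1.03 (SE 0.40) over 6 weeks. None of these passed the adjusted threshold in limma.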
